A study of Mus musculus with 20 samples.

Results

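The nuclear genes of the respiratory chain and the ATP synthase were examined in mouse intestinal RNA: 79 of the 24795 genes in the table, chosen by name. Complex I (names starting Ndufa, Ndufb, Ndufc, Ndufs or Ndufv and a digit) had 37 members, complex III (Uqcr) 8, complex IV (Cox4 to Cox8) 18 and complex V (Atp5) 16. The rule used names and no measured value. It left out the acyl carrier Ndufab1, which was counted instead in the list of complex I assembly factors. Cytochrome c1 and the subunits encoded in mitochondrial DNA (0 rows named mt-) were left out too and were not analysed here. The rule took in Atp5s, a factor that is not a subunit of the enzyme. It also took in Ndufa4, which is counted under complex I by its name although the field now places its protein in complex IV.

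The 20 libraries formed 3 groups. Mice with the Apc Min allele, a truncating mutation of the Wnt pathway scaffold Apc that gives rise to intestinal adenomas, supplied 7 libraries under a control treatment and 6 under DM-aKG, a cell-permeable dimethyl ester of alpha-ketoglutarate. Wild-type (WT) mice without treatment supplied 7. The labels give all 3 groups organoid medium and low glutamine, call the sample type primary cell and the tissue intestinal organoids, yet every sample title says tissue. Strain, age and the number of animals are not given, and p-values therefore describe how far these libraries vary, some of which may be technical. WT and Apc Min also differ in treatment as labelled, none against a control treatment, and genotype and that difference cannot be told apart.

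Oxidative phosphorylation takes electrons from NADH at complex I and from succinate at complex II, passes them through complex III and cytochrome c to oxygen at complex IV, and uses the proton gradient to make ATP at complex V. Most subunits are encoded in the nucleus and a few in mitochondrial DNA, so assembly draws on both genomes and on the mitochondrial ribosome. In the intestine, mitochondrial content increases as crypt cells mature into absorptive enterocytes. Alpha-ketoglutarate is itself an intermediate of the tricarboxylic acid cycle, which supplies the electrons.

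Values are RPKM, reads per kilobase of gene scaled to the mapped reads of the library, so levels can be compared between genes. Spacing of the smallest values gave estimated depths from 21.26 M to 29.26 M reads. Log2 changes are differences of log2(RPKM + 1), given ± SE, and come out too small for weakly expressed genes. The test was limma, with p-values adjusted by the Benjamini-Hochberg method over 12433 genes that reached 1 RPKM in 6 or more libraries, and a gene was called where the adjusted p was under 0.05. Of the 79 members, 74 were tested (37, 8, 13 and 16 in complexes I, III, IV and V). Sets of 3 values in RPKM are the lowest, the median and the highest library of a group. Replicates 5 to 7 stood apart from replicates 1 to 4 in the ribosomal RNA precursor Rn45s within each group, a split found earlier in these data. Counts of calls within these sets, and values for some members only, are given after the pooled ones.

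Members covered a wide range of levels. Atp5b, the catalytic beta subunit of the ATP synthase, had the highest mean over all libraries (456 RPKM), followed by Cox4i1 (387 RPKM), the core regulatory subunit of complex IV, and Atp5a1 (317 RPKM), the alpha subunit. Cox7b2 and Cox8c, known from testis, were listed at 0 in all libraries. Cox6a2 (mean 0.0363 RPKM) and Cox8b (0.661 RPKM), known from striated muscle, and Cox4i2 (0.764 RPKM), known from lung, did not reach the minimum. Apart from Ndufa4l2, the lowest means in complex I were those of Ndufs5 (3.49 RPKM), Ndufa11 (10.9 RPKM) and Ndufb2 (14.3 RPKM), constant parts of the enzyme. Many of these short genes have processed pseudogenes, and how reads shared with such copies were counted is not given in the sources used here.

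Apc Min libraries of the control group had less RNA for most members than WT. Lower levels were called for 49 of 74 members, where 15.7% of all genes tested were called lower, and higher levels for 3, where 43.2% were called higher (58.8% in either direction). The median log2 change of the members was -0.46, against 0.20 for all genes tested. Lower calls came to 24 of 37 in complex I, 5 of 8 in complex III, 8 of 13 in complex IV and 12 of 16 in complex V. For 19 members every control library lay below every WT library, as did 5.73% of all genes tested, and for 0 members every control library lay above WT, where 20.4% of all genes did. Fewer mitochondria-rich cells and less RNA per cell cannot be told apart in such bulk samples.

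Summed over the 79 members, RPKM came to 9483 ± 1581 in WT (SD, n = 7), 6908 ± 1329 in control Apc Min (n = 7) and 6685 ± 898 in DM-aKG Apc Min (n = 6). The complex V sum lay furthest below WT in the control libraries: it was 67.1% of the WT mean, against 73.2% for complex IV, 73.8% for complex III and 80.3% for complex I. The lowest WT library had a complex V sum of 2674 RPKM, against highest values of 2670.2 in control and 2563 in DM-aKG libraries, whereas the sums of the other complexes overlapped. With DM-aKG the order was complex V (67.9%), IV (69.5%), III (71.4%) and I (74.9%). Sums weigh abundant genes most, and the order depends on the measure. By the median log2 change of the members, complex IV lay lowest, at -0.58 in control over WT and -0.57 in DM-aKG over WT. Complex V followed, at -0.55 and -0.53. The ratio of the complex V sum to the complex I sum does not depend on the scaling of a library. It lay between 1.42 and 1.48 in WT, 1.14 and 1.31 in control and 1.27 and 1.34 in DM-aKG libraries, so WT overlapped neither Apc Min group. Its mean was 1.45, 1.21 and 1.31 within replicates 1 to 4 and 1.44, 1.21 and 1.30 within replicates 5 to 7. This ratio was chosen after the values were seen and was not tested.

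**Figure D1:**
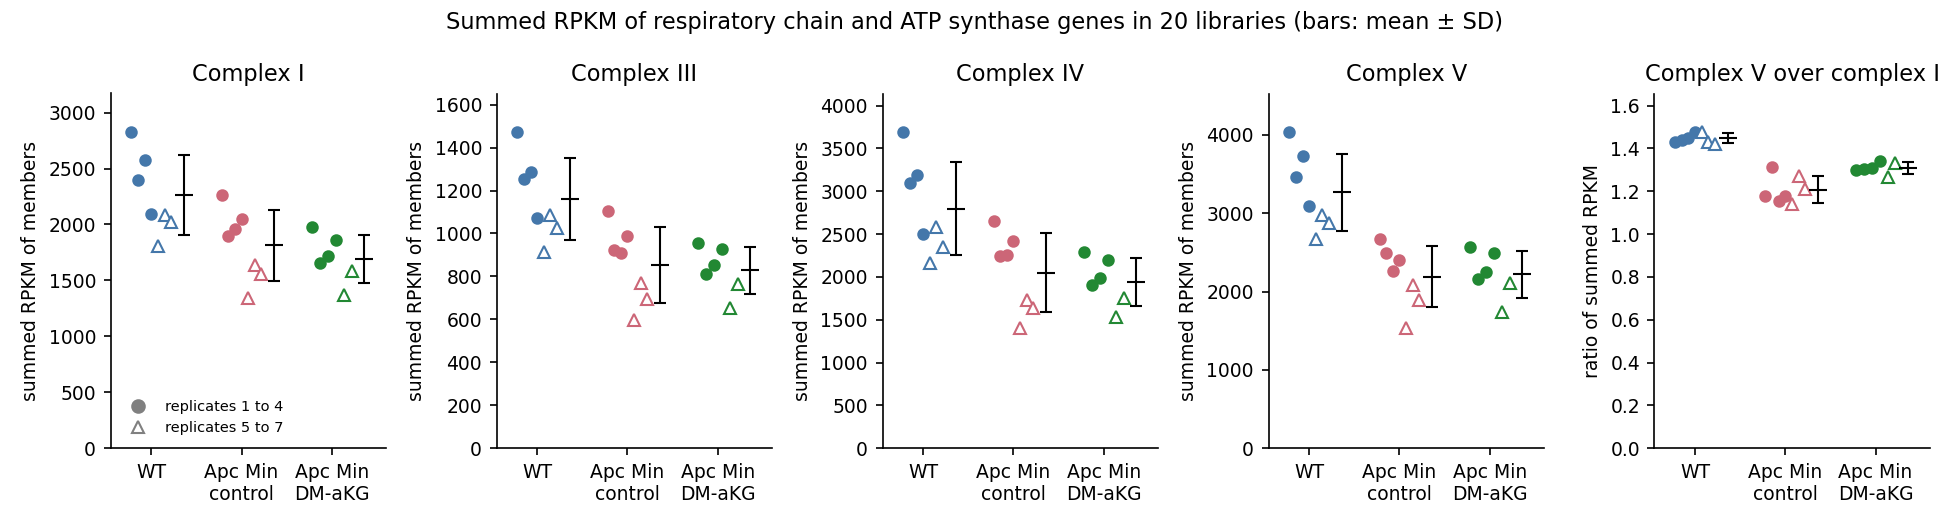
Summed RPKM of the members of complex I, III, IV and V in each library, and the ratio of the complex V to the complex I sum, by group; circles are replicates 1 to 4, open triangles replicates 5 to 7, and bars the mean ± SD. The Apc Min sums of complexes I, III and IV lie lower than WT on average but overlap it, those of complex V lie below every WT library by a narrow margin, and the ratio is between 1.42 and 1.48 in WT and at most 1.34 in the Apc Min libraries.

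Complex I holds a peripheral arm that oxidises NADH and a membrane arm that pumps protons. Of its 7 nuclear core subunits, which carry the flavin and the iron-sulfur clusters, 5 were called lower in control Apc Min than in WT (median log2 change -0.43). Ndufs1, the largest core subunit (chr1:63143596-63176833 in mm10), had 33.6, 36.8 and 38.5 RPKM in WT, 18.1, 19.6 and 26.7 in control and 19.9, 23.3 and 25.5 in DM-aKG libraries. All Apc Min libraries were below all WT libraries. The log2 change was -0.74 ± 0.09 in control over WT (limma adjusted p = 9.88e-07) and -0.64 ± 0.093 in DM-aKG over WT (adjusted p = 4.8e-05). Ndufs8, a ferredoxin-like core subunit, had 34.0, 41.9 and 44.3 RPKM in WT, 16.6, 28.1 and 33.4 in control and 12.1, 24.5 and 28.5 in DM-aKG libraries, again without overlap between WT and either Apc Min group. Ndufv2, a core subunit with an iron-sulfur cluster, was called lower by a smaller margin (-0.42 ± 0.086, limma adjusted p = 0.000336). Ndufs3, a core subunit of the peripheral arm, did not pass in control over WT (log2 change -0.19, limma adjusted p = 0.213).

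Accessory subunits surround this core and serve its assembly and stability. In control Apc Min 18 of 28 were called lower than in WT and 1 higher, with a median log2 change of -0.41. Ndufa5, an accessory subunit of the peripheral arm (chr6:24518666-24528013), showed the largest called fall in complex I: 46.5, 58.8 and 84.3 RPKM in WT against 22.2, 35.2 and 45.3 in control libraries, which did not overlap (log2 change -0.81 ± 0.14, limma adjusted p = 8.43e-05). Ndufc1, a small membrane subunit, was next with 43.3, 57.2 and 79.5 RPKM in WT and 15.8, 35.1 and 49.6 in control libraries, a log2 change of -0.80 ± 0.22 (limma adjusted p = 0.00367) with some overlap. Ndufa10, of the membrane arm, varied least within groups among the members tested (SD of 0.0956 on the log2 scale) and was called with a change of only -0.16 ± 0.069 (limma adjusted p = 0.0465). Ndufb11 and Ndufa2 were not called (0.02 and 0.03). Ndufa4 had 137, 169 and 276 RPKM in WT, 103, 142 and 156 in control and 86.8, 126 and 131 in DM-aKG libraries. It was lower in control over WT (-0.42 ± 0.15, limma adjusted p = 0.0184) with some overlap, and in DM-aKG over WT (-0.60 ± 0.15, adjusted p = 0.0046) without any. The call in control over WT was lost within replicates 1 to 4 (limma adjusted p = 0.0757) and within replicates 5 to 7 (0.0654).

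Complex III passes electrons from ubiquinol to cytochrome c. Its large core proteins Uqcrc1 and Uqcrc2 and the Rieske iron-sulfur protein Uqcrfs1 were all lower in control Apc Min than in WT. Uqcrc2 (chr7:120635176-120659524) varied little within groups: 105, 115 and 118 RPKM in WT, 70.6, 80.3 and 86.4 in control and 75.2, 82.0 and 91.6 in DM-aKG libraries. WT stood above both other groups without overlap. The log2 change was -0.51 ± 0.071 in control over WT (limma adjusted p = 6.4e-06). Uqcrb, a small subunit near the ubiquinone site, changed most in the complex, from 202, 236 and 299.5 RPKM in WT to 106, 149 and 173 in control libraries (log2 change -0.71 ± 0.12, limma adjusted p = 5.18e-05). Uqcrc1 (chr9:108936633-108949623) was nearly as far below WT, with 107, 122 and 148 RPKM there and 58.5, 78.9 and 89.4 in control libraries (-0.69 ± 0.10, limma adjusted p = 1.55e-05). Neither gene overlapped. The other small subunits split: Uqcr11 was called lower (-0.46), a call lost without control replicate 5 (limma adjusted p = 0.0591), control replicate 7 (0.0565) or WT replicate 3 (0.0523), and Uqcrh (-0.20), Uqcrq (-0.32) and Uqcr10 (-0.32) were not called.

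Complex IV, cytochrome c oxidase, reduces oxygen. Among its 10 broadly expressed nuclear subunits 8 were called lower in control Apc Min than in WT, and Cox4i1 and Cox8a were not. Cox6a1, the widely expressed form of subunit VIa (chr5:115345642-115348981), had 280.0, 365 and 500.2 RPKM in WT and 158, 232 and 259.9 in control libraries. Those ranges did not overlap, and the log2 change was -0.74 ± 0.13 (limma adjusted p = 0.000109). Cox4i1, needed for the earliest step of assembly, had 318, 380.0 and 585 RPKM in WT and 248, 396 and 517 in control libraries, with wide overlap and a log2 change of -0.22 ± 0.18 (limma adjusted p = 0.299, 95% interval -0.59 to 0.15). Cox5a, which binds next to it, was called lower (-0.71 ± 0.19, limma adjusted p = 0.00353), as were Cox7a2 (-0.67), Cox7b (-0.66) and Cox5b (-0.60). Cox8a, the small subunit at the outer edge, had 171, 245 and 366 RPKM in WT and 93.8, 213 and 282 in control libraries, and was not called (-0.49 ± 0.25, limma adjusted p = 0.0988). With the replicate sets as a factor both Cox8a (limma adjusted p = 0.000908) and Cox4i1 (0.0441) were called lower, and Cox8a was also called without control replicate 1 (0.0441). Among the muscle and testis forms, Cox7a1, known from heart and skeletal muscle, varied most within groups among the members tested (SD of 0.843 on the log2 scale). It had 23.6, 44.0 and 103 RPKM in WT, 6.41, 29.5 and 51.4 in control and 12.7, 36.6 and 47.8 in DM-aKG libraries, and was called in no comparison (-0.91 ± 0.42 in control over WT, limma adjusted p = 0.0654), though it was called lower there without control replicate 2 (0.0334), control replicate 4 (0.0329) or WT replicate 4 (0.0362). Cox6b2, known from testis, had 2.10, 2.93 and 3.68 RPKM in WT, 0.958, 2.59 and 5.47 in control and 0.732, 1.66 and 2.83 in DM-aKG libraries. It was not called in any comparison either. In DM-aKG over WT it was near the threshold (-0.56 ± 0.22, limma adjusted p = 0.0517), and 13 of 31 alternative fits called it lower there.

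The ATP synthase turns a ring of c subunits in the membrane, coupled to the catalytic F1 head. In F1, 4 of 5 subunits were lower in control Apc Min than in WT, and in the peripheral stalk 4 of 4. Atp5b (chr10:128083273-128090391) had 539.9, 579 and 676 RPKM in WT, 303, 374 and 446 in control and 326, 400.1 and 422 in DM-aKG libraries. No Apc Min library reached the WT range, and the log2 change in control over WT was -0.69 ± 0.095 (limma adjusted p = 4.82e-06). Atp5a1, whose gene is also known as Mom2, a modifier of adenoma number in Apc Min mice, followed with 350.2, 388 and 449 RPKM in WT and 229, 272 and 299.9 in control libraries (-0.54 ± 0.09, limma adjusted p = 4.65e-05). Atp5e, the epsilon subunit, was not called (-0.49, limma adjusted p = 0.128). In the stalk that holds the head still, Atp5o (also known as OSCP) had 216, 238 and 266 RPKM in WT and 106, 146 and 188 in control libraries (-0.75 ± 0.11, limma adjusted p = 1.59e-05). Atp5f1, subunit b of that stalk, had 137, 149 and 189 RPKM in WT and 72.2, 104 and 111 in control libraries (-0.68 ± 0.11, limma adjusted p = 2.53e-05). Both ranges were apart from WT. Atp5s, the coupling factor, was low in all groups, with 2.74, 2.83 and 3.60 RPKM in WT and 2.89, 3.63 and 4.22 in control libraries, and was not called (0.21 ± 0.089, limma adjusted p = 0.0529).

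The largest falls of all members were in small membrane subunits known for the dimer form of the enzyme. Atp5k, subunit e (chr5:108433244-108434448), had 115, 146 and 206 RPKM in WT, 35, 83.3 and 109 in control and 40.9, 78.4 and 94.1 in DM-aKG libraries. Its log2 change was -1.04 ± 0.23 in control over WT (limma adjusted p = 0.000645) and -1.17 ± 0.24 in DM-aKG over WT (adjusted p = 0.00092). Atp5j2, subunit f, had 109, 141 and 200.1 RPKM in WT and 45.5, 69.2 and 102 in control libraries, a log2 change of -0.99 ± 0.18 (limma adjusted p = 0.000104). Neither gene overlapped between WT and either Apc Min group. Atp5l, subunit g of the same set, was not called (-0.27, limma adjusted p = 0.224).

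**Figure D2:**
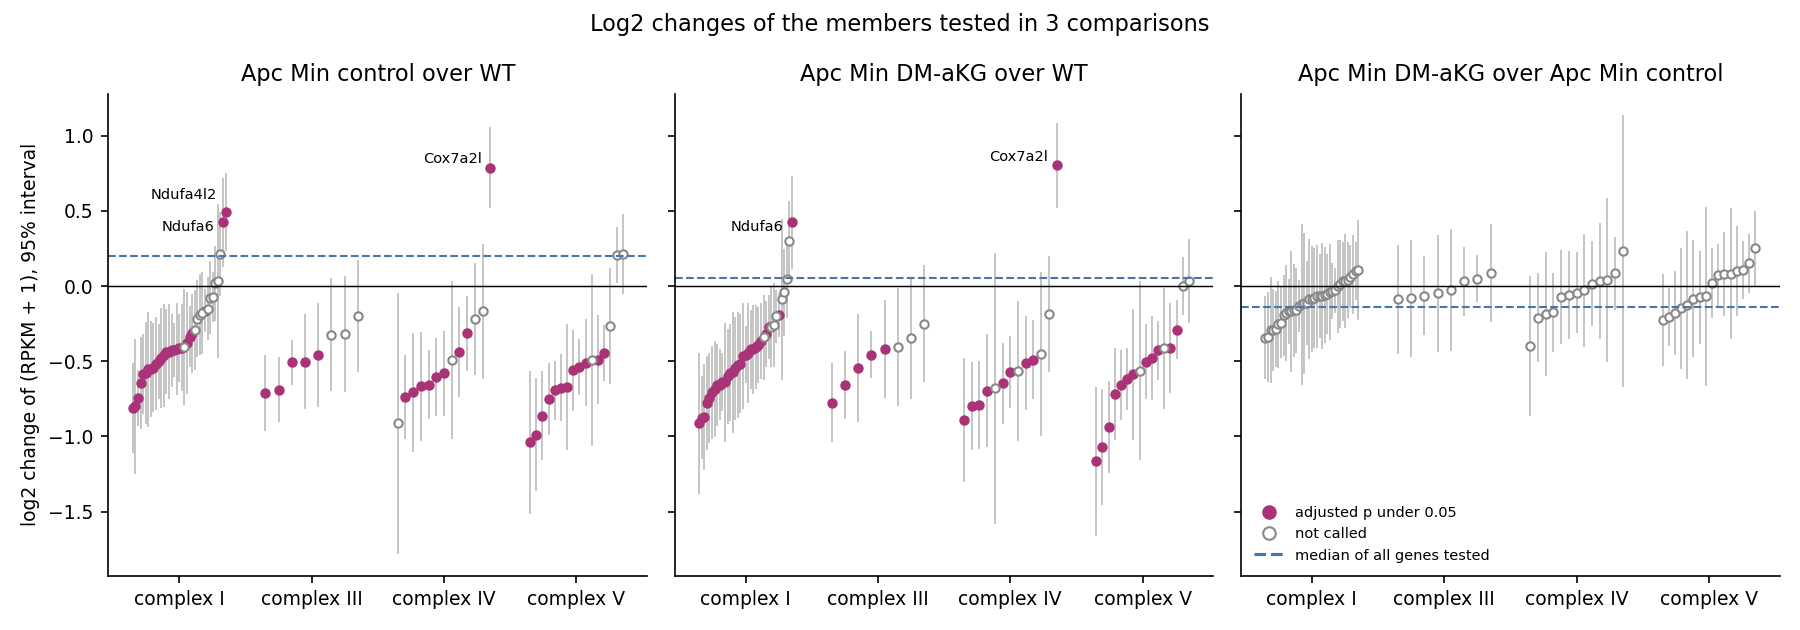
Log2 change of each of the 74 members tested, with its 95% interval, by complex and comparison; filled points passed an adjusted p under 0.05, and the dashed line is the median of all genes tested. Against WT most points lie below 0 in both Apc Min groups, the 3 members called higher in control and the 2 in DM-aKG libraries are named, and none passed in DM-aKG over control.

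Markers of cell types moved in control over WT, where 15.7% of all genes tested were called lower and 43.2% higher. All 13 smooth muscle markers were lower in control Apc Min than in WT (median log2 change -0.84), with sums of 1194 to 2041 RPKM in WT, 465 to 1564 in control and 1078 to 1842 in DM-aKG libraries. All 7 leukocyte markers were lower too (summed 269 to 763 RPKM in WT, 55.1 to 141 in control), 5 of 6 fibroblast markers were higher (73.8 to 145 against 218 to 323 RPKM), and 4 of 5 endothelial markers were higher (9.30 to 22.2 against 29.7 to 40.3 RPKM). Of 12 markers of absorptive enterocytes 7 were lower and 1, Apoa4, was higher (10172 to 27416 RPKM in WT, 7040.0 to 21039 in control), and of 10 general epithelial markers 5 were lower and 1 higher (6360 to 8657 against 4936 to 7162 RPKM). Markers of smooth muscle, leukocytes and endothelium were thus present in every library, also where the labels say organoids. With the mean of the smooth muscle markers as a covariate, 12 members in place of 49 were called lower in control over WT, with a median of -0.21. Over all genes tested, lower calls fell from 15.7% to 4.91%, with a median of 0.20 in both fits. The covariate itself differs between these groups, so this fit cannot part it from the group. In DM-aKG over WT no smooth muscle marker was called and their median was -0.02. There 54 members were called lower with the covariate and 53 without it, against 16.9% and 17.3% of all genes tested. The part of the other cell types in the change against WT was not tested.

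The sequence around the start site is shown for Cox7a2l, the member with the largest call against its complex, for the 3 c-ring genes, whose changes differed, and for Atp5k and Ndufc1, which were called lower and hold motif letters, as 150 bases before and 30 after the start from RefSeq in build GRCm38.p6, in lower case with capitals for motif matches on either strand. The motifs searched were that of NRF1 (nuclear respiratory factor 1), whose exact form is the run of capitals in the Atp5g2 line and which was also searched with its middle A left free, CCGGAAG for the ETS factor GABPA, AAGATGGC for YY1, TCAAGGTCA for the estrogen-related receptors and ACGTG for the hypoxia-inducible factors. The 3 c-ring genes encode the same mature protein behind different targeting sequences.
Cox7a2l, chr17:83514304-83514483, strand -: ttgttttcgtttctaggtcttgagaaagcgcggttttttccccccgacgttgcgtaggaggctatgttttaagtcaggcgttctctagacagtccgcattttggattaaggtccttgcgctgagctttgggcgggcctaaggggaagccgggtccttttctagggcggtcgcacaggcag
Atp5g1, chr11:96075602-96075781, strand -: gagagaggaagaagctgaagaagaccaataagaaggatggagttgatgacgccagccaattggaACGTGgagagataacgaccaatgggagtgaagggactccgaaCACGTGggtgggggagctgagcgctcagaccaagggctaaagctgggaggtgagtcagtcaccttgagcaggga
Atp5g2, chr15:102671018-102671197, strand -: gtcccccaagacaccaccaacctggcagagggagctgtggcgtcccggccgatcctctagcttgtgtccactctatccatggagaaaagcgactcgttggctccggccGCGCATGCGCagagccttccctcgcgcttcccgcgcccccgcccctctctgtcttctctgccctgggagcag
Atp5g3, chr2:73911297-73911476, strand -: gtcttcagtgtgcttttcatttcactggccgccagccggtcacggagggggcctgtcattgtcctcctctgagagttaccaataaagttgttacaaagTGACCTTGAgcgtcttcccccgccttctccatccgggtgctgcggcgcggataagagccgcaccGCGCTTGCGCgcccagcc
Atp5k, chr5:108434370-108434549, strand -: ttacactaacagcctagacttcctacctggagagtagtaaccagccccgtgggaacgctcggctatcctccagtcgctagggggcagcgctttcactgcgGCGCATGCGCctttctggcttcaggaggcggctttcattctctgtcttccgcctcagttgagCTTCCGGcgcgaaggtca
Ndufc1, chr3:51408926-51409105, strand -: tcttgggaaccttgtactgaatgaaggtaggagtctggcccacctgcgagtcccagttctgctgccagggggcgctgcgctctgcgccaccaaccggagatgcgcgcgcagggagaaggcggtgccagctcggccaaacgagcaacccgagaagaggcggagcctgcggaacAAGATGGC
In the printed bases Cox7a2l showed none of these letters, Atp5g1 only ACGTG, Atp5g2 and Atp5k the NRF1 letters before the start, Atp5k also the ETS letters after it, Atp5g3 the NRF1 letters after it and the receptor letters before it, and Ndufc1 the YY1 letters after the start.

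In windows of 250 bases before to 50 after the start, found for 63 members, NRF1 letters with 1 free base stood in 15 members (23.8%), against 11.2% of 9693 genes tested and 4.60% of all 32851 windows. Its exact form stood in 5 members (7.94%, against 2.26% of genes tested): Atp5g2, Atp5k, Cox6a1, Ndufa11 and Uqcrc1. YY1 letters stood in 9 members (14.3% against 5.26%). For the ETS letters the shares were 22.2% and 19.9%, and for ACGTG 23.8% and 28.9%. The receptor letters stood in Atp5g3 alone (1.59% against 0.289%). These are matches of letters, and binding was not measured.

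Against the general direction, 3 members were higher in control Apc Min than in WT. Cox7a2l, also known as SCAF1, joins complexes III and IV into supercomplexes; its gene lies at chr17:83501918-83517330. It had 65.2, 69.4 and 77.4 RPKM in WT, 76.1, 126 and 170.1 in control and 95.7, 128 and 146 in DM-aKG libraries. Only control replicate 6 fell within the WT range, and DM-aKG did not overlap WT. The log2 change was 0.79 ± 0.13 in control over WT (limma adjusted p = 4.04e-05) and 0.80 ± 0.14 in DM-aKG over WT (adjusted p = 0.00019). Its paralog Cox7a2, the usual subunit of complex IV itself, was lower in both (-0.67 and -0.70).

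Ndufa6, an accessory subunit of the LYR protein family in complex I (chr15:82350140-82354322), had 97.0, 116 and 140.1 RPKM in WT, 116, 160.4 and 238 in control and 129.5, 155 and 208 in DM-aKG libraries, with overlap in both cases. Its log2 change was 0.42 ± 0.14 in control over WT (limma adjusted p = 0.0154) and 0.42 ± 0.15 in DM-aKG over WT (adjusted p = 0.0295). With median-of-ratios scaling neither call held (limma adjusted p = 0.367 and 0.104), and the DM-aKG call was also lost without any one of DM-aKG replicates 1 (0.0778), 3 (0.0559) and 4 (0.0512) or WT replicate 5 (0.0589). Within replicates 1 to 4 the DM-aKG call was lost (limma adjusted p = 0.0635). Within replicates 5 to 7 neither call held (0.199 in control over WT and 0.135 in DM-aKG over WT). Ndufa4l2, a paralog of Ndufa4 known to be induced by hypoxia, was low everywhere: 0.508, 0.707 and 0.991 RPKM in WT, 0.684, 1.58 and 2.25 in control and 0.820, 1.06 and 1.63 in DM-aKG libraries. The log2 change was 0.49 ± 0.12 in control over WT (limma adjusted p = 0.00209, but 0.0551 after quantile normalization and 0.263 within replicates 5 to 7). Ndufa4l2 was not called in DM-aKG over WT (0.30 ± 0.13, limma adjusted p = 0.0712), except without control replicate 5 (0.0395), among other settings.

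Ratios between paralogs within a library were compared for 8 pairs in 3 comparisons by 2-sided exact permutation tests, adjusted over all 24, where the smallest p possible is 0.000583. The ratio of Atp5g2 to Atp5g3 was higher in Apc Min, by 0.88 on the log2 scale in control over WT (exact p = 0.000583, adjusted 0.00466) and by 0.62 in DM-aKG over WT (exact p = 0.00117, adjusted 0.00466), without overlap in either. It did not pass in DM-aKG over control (-0.26, exact p = 0.0507, adjusted 0.149). The ratio of Ndufa4l2 to Ndufa4 passed in control over WT (0.91) and DM-aKG over WT (0.90), each with an exact p of 0.00117 (adjusted 0.00466). Ndufa4l2 lay between 0.508 and 2.25 RPKM, so the added 1 weighs on this ratio. In DM-aKG over WT Ndufa4l2 itself was not called (0.30) while Ndufa4 was lower (-0.60), so the ratio there also holds the lower level of Ndufa4. The ratio of Cox6a2 to Cox6a1 also passed in both comparisons with WT, yet with Cox6a2 at most 0.169 RPKM it reads the level of Cox6a1. No ratio of the other pairs passed, nor did any of the 8 in DM-aKG over control.

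The c-ring genes show the shift in levels. Atp5g3, the most abundant (chr2:73908447-73911326), had 259.7, 359 and 596 RPKM in WT, 140.0, 245 and 347 in control and 179.9, 258 and 298 in DM-aKG libraries. Atp5g1 (chr11:96068852-96075670) had 74.7, 85.4 and 106 RPKM in WT, 32.0, 53.2 and 61.0 in control and 30.3, 48.2 and 56.4 in DM-aKG libraries, all below WT. Atp5g2 (chr15:102662864-102672352) had 88.9, 109 and 122 RPKM in WT, 95.7, 132 and 157 in control and 84.4, 118 and 123 in DM-aKG libraries, which overlapped throughout. Log2 changes in control over WT were -0.67 ± 0.20 for Atp5g3 (limma adjusted p = 0.00767), -0.86 ± 0.14 for Atp5g1 (3.71e-05) and 0.21 ± 0.13 for Atp5g2 (0.157). With the replicate sets as a factor Atp5g2 was called higher in control over WT (limma adjusted p = 0.00511) and lower in DM-aKG over control (0.0109). As a share of the summed RPKM of these genes, Atp5g2 made up 18.8% ± 2.27 in WT (SD, n = 7), 30.5% ± 3.57 in control (n = 7) and 27.1% ± 2.66 in DM-aKG libraries (n = 6).

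**Figure D3:**
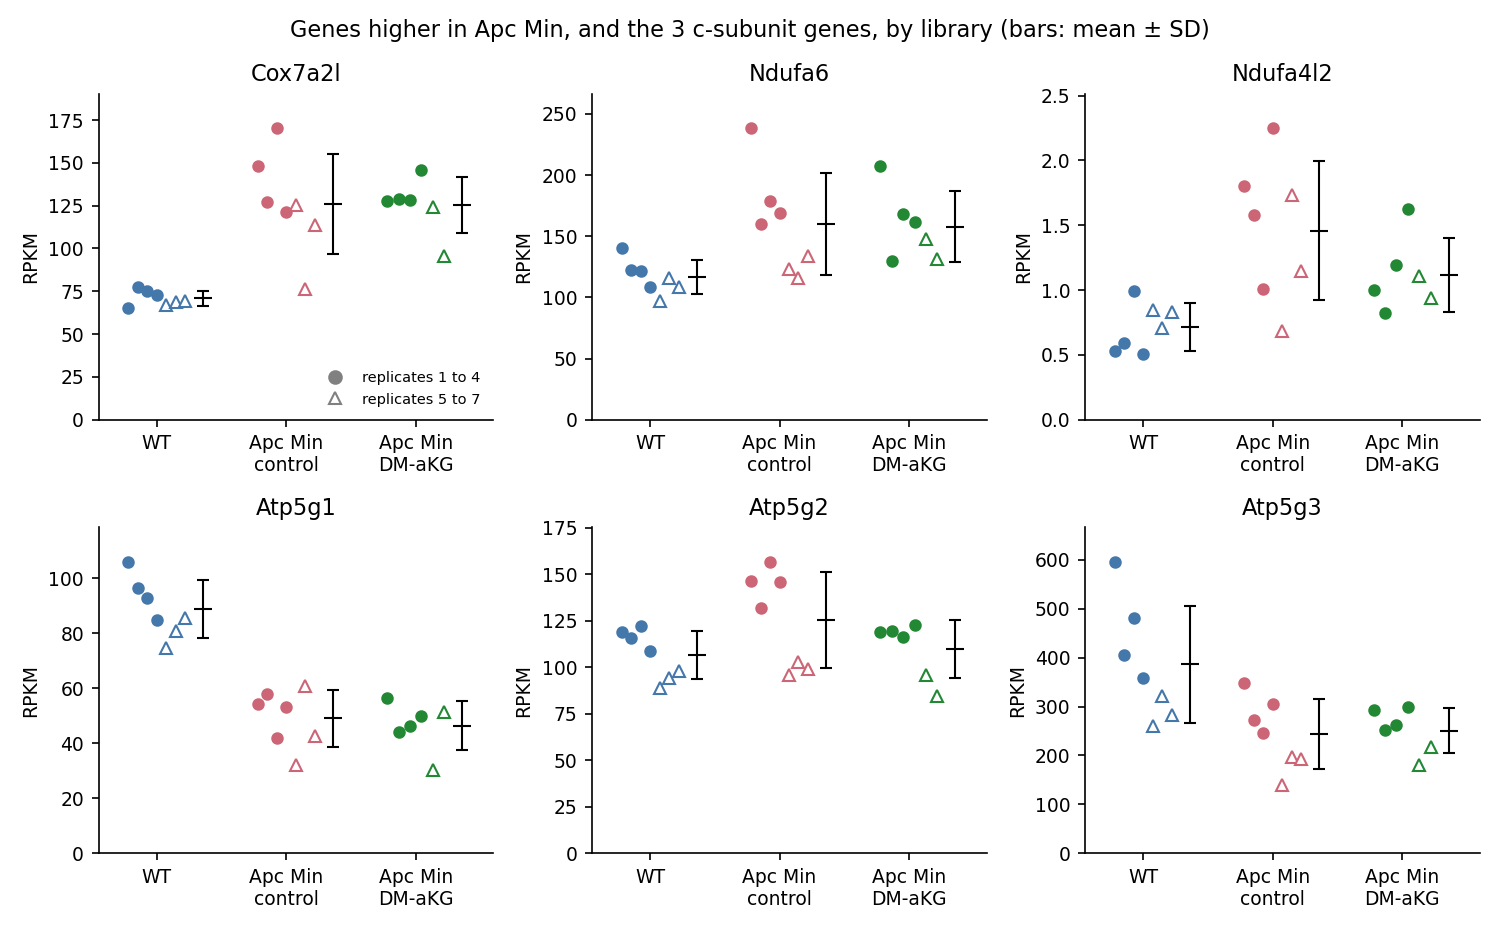
RPKM of the 3 members that were higher in control Apc Min than in WT and of the 3 c-ring genes in each library, by group; circles are replicates 1 to 4, open triangles replicates 5 to 7, and bars the mean ± SD. Cox7a2l lies at 65.2 to 77.4 RPKM in WT and above that range in all but 1 Apc Min library, Atp5g1 is below WT in every Apc Min library, and Atp5g2 overlaps in all groups.

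Treatment of Apc Min was compared next, DM-aKG over control, the series being about Wnt signalling and differentiation under alpha-ketoglutarate. None of the 74 members was called, where 27.6% of all genes tested were called lower and 5.91% higher (33.5% in either direction). At an unadjusted p under 0.05 from limma there were 7. Log2 changes ran from -0.40 to 0.25 with a median of -0.07, against -0.14 for all genes tested, and the groups overlapped for every member, where 8.19% of all genes tested lay wholly lower and 0.732% wholly higher. The 95% interval lay within 1 of 0 on the log2 scale for 73 members, the exception being Cox7a1 (-0.67 to 1.14), and within 0.5 of 0 for 54. Smaller changes were therefore not detectable for many members, and the missing calls do not show that the groups are alike.

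By complex, the medians in DM-aKG over control were -0.08 (I), -0.04 (III), -0.04 (IV) and -0.02 (V). The members nearest to a call, named after their values were seen, were complex I accessory subunits. Ndufs4, a subunit of the NADH-oxidising arm whose loss causes Leigh-like disease in mice, had 26.1, 33.4 and 42.3 RPKM in WT, 21.3, 27.8 and 31.6 in control and 16.4, 22.4 and 24.9 in DM-aKG libraries, where treated and control libraries overlapped in the pool. Its log2 change was -0.34 ± 0.13 (limma adjusted p = 0.0504, 95% interval -0.62 to -0.07). Within replicates 1 to 4 its mean was 30.3 RPKM in control and 23.5 in DM-aKG, and within replicates 5 to 7 it was 22.9 and 16.6. It was called lower in each set fitted alone.

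Ndufc2, a membrane subunit, had 49.5, 60.2 and 73.0 RPKM in control and 42.2, 49.5 and 64.3 in DM-aKG libraries (-0.29 ± 0.12, limma adjusted p = 0.0758). Ndufa1 had 32.3, 44.8 and 55.3 RPKM in control and 24.2, 37.1 and 41.4 in DM-aKG libraries (-0.34 ± 0.14, limma adjusted p = 0.077). Both ranges overlapped. At the other end stood Atp5o, the stalk subunit, with 106, 146 and 188 RPKM in control and 143, 170.1 and 217 in DM-aKG libraries (0.25 ± 0.12, limma adjusted p = 0.11). The count of 0 depended on the fit. Without control replicate 5 there were 5 lower calls (Ndufs4, Ndufa1, Ndufc2, Ndufs6 and Atp5s), where 3427 of 12364 genes tested were called lower. With the replicate sets as a factor there were 7, where 3921 of 12433 genes were. Within replicates 1 to 4 there were 4, where 14.8% of all genes tested were. Median-of-ratios scaling gave 4 higher calls, where 1370 of 12433 genes were called higher.

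In DM-aKG Apc Min over WT, 53 of 74 members were called lower, where 17.3% of all genes tested were, and 2, Cox7a2l and Ndufa6, were called higher, where 21.9% were (39.2% in either direction). The median was -0.51 against 0.05 for all genes tested. Complex I had 28 lower calls of 37, complex III 5 of 8, complex IV 8 of 13 and complex V 12 of 16. In this comparison 28 members lay wholly below WT and 1, Cox7a2l, wholly above, against 7.79% and 9.36% of all genes tested. Both comparisons with WT use the same WT libraries, so they are not independent of each other. Without DM-aKG replicate 5 the lower calls of the members came to 38, where 1570 of 12402 genes tested were called lower. By role, 6 of 7 core and 21 of 28 accessory subunits of complex I, 3 of 3 core and Rieske proteins of complex III, 8 of 10 broadly expressed subunits of complex IV, 4 of 5 F1 subunits and 4 of 4 stalk subunits were lower. Ndufs6, a zinc protein of the peripheral arm, had 58.1, 61.4 and 74.6 RPKM in WT, 37.0, 48.3 and 59.5 in control and 32.1, 41.6 and 48.9 in DM-aKG libraries, the last wholly below WT (-0.66 ± 0.11, limma adjusted p = 0.000216).

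For some members the values of the 2 comparisons with WT lay apart. Ndufa12, a subunit late in complex I assembly, had 53.0, 68.9 and 83.4 RPKM in WT, 36.3, 47.0 and 55.3 in control and 30.3, 34.7 and 53.6 in DM-aKG libraries. Its log2 change was -0.58 ± 0.13 in control over WT (limma adjusted p = 0.000589) and -0.88 ± 0.13 in DM-aKG over WT (adjusted p = 6.75e-05), and the difference between the groups did not pass (adjusted p = 0.0947). Cox6b1, at the dimer face of complex IV, had log2 changes of -0.58 ± 0.14 and -0.79 ± 0.14 (limma adjusted p = 0.00114 and 0.000307), and DM-aKG over control did not pass (adjusted p = 0.263).

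Within each group, replicates 5 to 7 had lower means than replicates 1 to 4 for 70 (WT), 71 (control) and 73 (DM-aKG) of 74 members, with median log2 differences of -0.32, -0.44 and -0.31, against 0.03, 0.05 and -0.07 for all genes tested. The replicate 5 library held the lowest value of its group for 61, 65 and 58 members. Fitted within replicates 1 to 4, 44 of 75 members were lower in control over WT (11.7% of all genes tested) and within replicates 5 to 7, 48 of 74 (9.29%), with medians of -0.40 and -0.53. For DM-aKG over WT the counts were 59 and 6 (11.9% and 3.11% of all genes tested), the second with 2 DM-aKG libraries, and the medians -0.52 and -0.52. The DM-aKG effect differed between the sets for 0 of 74 members (limma interaction, 1 at an unadjusted p under 0.05), where 0.209% of all genes tested passed. What the sets stand for is not given in the labels, and their part in the levels was not tested.

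The rest of the pathway was read through lists that were chosen with earlier results of these data known. Complex II, which feeds in electrons from succinate, was lower in control over WT in 4 of 4 genes (median -0.77) and in DM-aKG over WT in 4 of 4 (-0.59), and in DM-aKG over control 0 of 4 passed (0.15). Cycs, cytochrome c itself, had 117, 139.7 and 185 RPKM in WT, 28.7, 57.9 and 81.6 in control and 42.4, 50.9 and 59.1 in DM-aKG libraries, all below WT. Its log2 change was -1.42 ± 0.18 in control over WT (limma adjusted p = 1.95e-06), larger than that of any member. Slc25a5, an ADP/ATP carrier of the inner membrane, was the only gene of 8 carriers and cytochromes called in DM-aKG over control, higher by 0.47 ± 0.16 (limma adjusted p = 0.0258). The ATP synthase inhibitor Atpif1 was lower in control over WT (-0.87) and DM-aKG over WT (-0.97).

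Assembly factors and the mitochondrial ribosome had calls in both directions in control over WT. Of 16 complex I assembly factors, Ndufab1 counted among them, 4 were lower (25%, against 15.7% of all genes tested) and 2 higher in control over WT. With DM-aKG over control 3 fell, Ndufaf7 (-0.40), Ndufaf2 (-0.45) and Foxred1 (-0.29). Both the 2 higher and the 3 that fell are smaller shares of the list than the 43.2% and 27.6% of all genes tested. Of 5 complex III factors 1 was higher and 0 lower in control over WT. Of 22 complex IV factors 4 were higher (18.2%) and 9 lower (40.9%), where 43.2% and 15.7% of all genes tested were. In DM-aKG over WT 9 of 16 complex I factors, 0 of 5 complex III factors and 12 of 22 complex IV factors were lower. Of all genes tested 17.3% were lower there. Higher calls there came to 0, 0 and 1 in these lists, where 21.9% of all genes tested were higher. In DM-aKG over control 1 of 5 complex III factors fell, Uqcc2 (-0.61), and 1 of 22 complex IV factors, Cox18 (-0.36). Of all genes tested 27.6% fell there. Of the 78 mitochondrial ribosomal proteins, which serve translation of the subunits encoded in mitochondrial DNA, 23 were higher and 9 lower in control over WT (median 0.07), where 43.2% and 15.7% of all genes tested were. In DM-aKG over control 37 fell (47.4%, against 27.6% of all genes tested) and 0 rose (median -0.29), and in DM-aKG over WT 31 were lower (39.7%, against 17.3%) and 0 higher. Mrps10 had 7.96, 9.34 and 10.4 RPKM in WT, 11.2, 14.6 and 15.4 in control and 7.16, 9.60 and 10.5 in DM-aKG libraries, control standing above both others. The summed RPKM of these proteins over that of the members was 0.119 to 0.159 in WT, 0.180 to 0.223 in control and 0.159 to 0.180 in DM-aKG libraries, a ratio chosen after the values were seen.

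**Figure D4:**
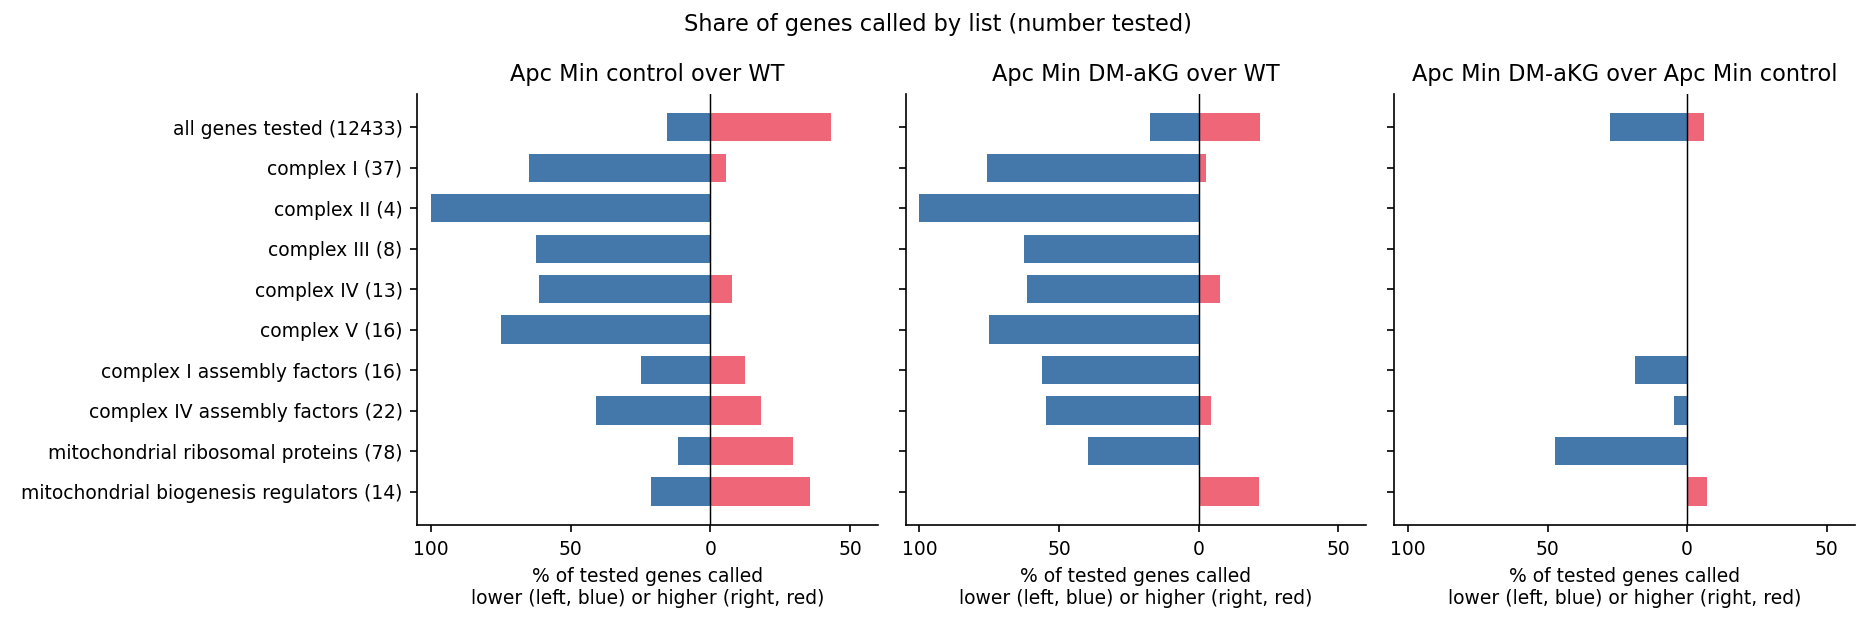
Percent of tested genes called lower (to the left) and higher (to the right) in each comparison for all genes, for the complexes and for other mitochondrial lists, with the number of genes tested in brackets. The complexes show long bars to the left against WT and no bar in DM-aKG over control, where the mitochondrial ribosomal proteins have 37 of 78 genes lower.

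In control over WT, regulators of mitochondrial biogenesis moved in both directions, at shares not far from those of all genes. Of 14 tested, 5 were higher (35.7%) and 3 lower (21.4%) in control over WT, against 43.2% and 15.7% of all genes tested. In DM-aKG over control 1 was higher and 0 lower, against 5.91% and 27.6%. The genes below are therefore single cases. Ppargc1a, a coactivator of mitochondrial genes, had 5.06, 7.88 and 9.73 RPKM in WT, 2.46, 4.89 and 7.69 in control and 4.11, 7.58 and 9.69 in DM-aKG libraries. It was lower in control over WT (-0.61 ± 0.20, limma adjusted p = 0.0145) and higher in DM-aKG over control (0.57 ± 0.21, adjusted p = 0.0426), with overlap in both. Esrra, an estrogen-related receptor that acts with it, was lower in control over WT (-0.76), and Ppargc1b likewise (-0.49), while Yy1 (0.60) and Nrf1 (0.30) were higher. Tfam, which packs and transcribes mitochondrial DNA, had a log2 change of -0.02 in control over WT (limma adjusted p = 0.834). Of 10 targets of the hypoxia-inducible factors 9 were higher in control over WT, where 43.2% of all genes tested were, and 7 fell in DM-aKG over control, where 27.6% did, while the paralog Ndufa4l2 had a log2 change of -0.20 there (adjusted p = 0.257). In that comparison all 13 smooth muscle markers rose (median 0.82), 7 of 12 enterocyte markers rose and 4 of 6 fibroblast markers fell. Of 10 general epithelial markers 5 fell and 1 rose (summed 4936 to 7162 RPKM in control, 4140 to 5399 in DM-aKG libraries). Of 7 leukocyte markers 0 were called, and of 5 endothelial markers 1 fell. Of all genes tested 5.91% were called higher and 27.6% lower. With the smooth muscle markers as a covariate the median of the members in DM-aKG over control went from -0.07 to -0.28, with 73 of 74 below 0 in place of 49. The median of all genes tested went from -0.14 to -0.16. Of the members 3 were called lower (Cox6b2, Ndufs4 and Ndufs8), where 18.7% of all genes tested were. The part of the other cell types was not tested.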

How the data were processed

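RNA sequencing covered 20 mouse libraries, grouped by their titles. RPKM values per gene were deposited by the authors as 1 table; the unit was inferred from the values, since no header names it. The tools named per the submitters' processing notes are Partek, HISAT2 2.0.4 and CASAVA 1.8, with build mm10. What each did, the annotation and the strand setting: not given in the sources used here. RPKM divides by the library total, so abundant genes shift all others. Depth was estimated from the steps of low values, of which 66.2 to 71.7% fell within 0.1 read of a whole number, too few to recover counts.

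The members and lists were chosen with earlier results of these data known, and roles within complexes after the values were seen. Genes reaching 1 RPKM in 6 or more libraries were fitted as log2(RPKM + 1) in limma 3.58.1 (R 4.3.3, trend and robust, all 20 libraries, 3 groups, 2-sided, Benjamini-Hochberg over 12433 genes). Ratios of paralogs were tested by exact permutation. On simulated data for DM-aKG over control (12433 genes) the limma step recovered 10, 38, 86 and 100% of genes changed by 0.25, 0.5, 1 and 2 on the log2 scale, with 0 false calls in 117. Named members were, per complex and comparison, up to 3 called members with the largest change each way, the 2 with the highest mean, paralog pairs and members opposed to their complex; other members, such as Ndufs4, Ndufa1 and Atp5o, were named after their values were seen. From each pathway list up to 3 called genes were taken, and others for their role. Positions are from GENCODE M21 (all 79 names matched; Atp5o has no single entry) and promoters from RefSeq (63 matched). Alternatives are described in the closing section. Python 3.11.15, numpy 2.4.6, pandas 2.3.3 and scipy 1.17.1 were used. Many members are given only within counts, ranges and sums, and 1 result was left out and is not reported here.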

Additional observations from a re-analysis of the deposited data

Results flagged for a closer look

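In 108 groups of libraries, taken over the named members and the sums of the complexes, 4 held a library whose gap to the nearest other library was large for the range of its group, where chance gives about 1 in 20. Uqcr11 lay at 53.3 RPKM in DM-aKG replicate 5 against 79.2 to 91.9 RPKM in the remaining 5 libraries of that group. Ndufa12 lay at 53.6 RPKM in DM-aKG replicate 1 against 30.3 to 39.0 RPKM in the others, and without it Ndufa12 was called lower in DM-aKG over control (limma adjusted p = 0.0167). Cox8b lay at 1.90 RPKM in WT replicate 3 against 0 to 0.519 RPKM, and Cox6a2 at 0.169 RPKM in control replicate 2 with the others listed at 0. Both of the latter genes were below the minimum for testing.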

How the results depend on the processing

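In DM-aKG over control the 0 lower calls became 10 with the replicate number as a block, 7 with replicate sets as a factor, 4 in replicates 1 to 4, 1 in replicates 5 to 7, 3 with the smooth muscle covariate and 0 to 5 with 1 library left out (5 without control replicate 5; 2 without DM-aKG replicate 1 or 2; 1, Ndufs4, where control replicate 7, DM-aKG replicate 4, WT replicate 2 or WT replicate 5 was left out). Over all genes tested, lower calls came to 3603 of 12433 with the block and 3921 with the sets as a factor. They came to 14.8% in replicates 1 to 4, 22.7% in replicates 5 to 7 and 18.7% with the covariate. The 0 higher calls of the members became 3 with quantile normalization, 4 with median-of-ratios scaling, 1 with array weights, 1 with the replicate block and 0 to 1 with 1 library left out (Atp5o, without control replicate 1). Higher calls over all genes tested came to 1750 of 12433 with quantile normalization and 1370 with median-of-ratios scaling. Array weights gave 933 and the block 758. In control over WT the 49 lower calls became 12 with the smooth muscle covariate, where 4.91% of all genes tested were called lower. They were 43 to 62 in all other fits. Over all genes tested, lower calls in those fits ran from 1154 of 12422 in replicates 5 to 7 to 3396 of 12433 with median-of-ratios scaling. The 3 higher calls became 6 with the replicate block, 6 with the sets as a factor, 6 in replicates 1 to 4 and 1 in replicates 5 to 7. In DM-aKG over WT the 53 lower calls became 6 in replicates 5 to 7 and 38 to 56 with 1 library left out. Over all genes tested, 3.11% were lower in replicates 5 to 7. With 1 library left out, 1570 of 12402 (without DM-aKG replicate 5) to 2265 of 12364 (without control replicate 5) were. The 2 higher calls of the members became 1 with median-of-ratios scaling, 1 in replicates 1 to 4 and 0 in replicates 5 to 7. They became 1 to 3 with 1 library left out (1 where WT replicate 5 or DM-aKG replicate 1, 3 or 4 was left out). The 6 paralog ratios became 4 with a pseudocount of 0.1. In replicates 1 to 4 they became 0, where few libraries remain. There the smallest exact p possible is too large for 6 ratios alone to pass after adjustment, so this 0 says nothing about the ratios. Apart from the fewer libraries, the cause was not tested.

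Same-numbered libraries did not deviate together in every pair (correlations -0.457 to 0.604), so the numbers were not taken as pairs. Quantile normalization moved the median of all genes in control over WT from 0.20 to -0.01 and the genes called in DM-aKG over control from 735 higher and 3432 lower to 1750 and 1849; median-of-ratios scaling gave 1370 and 1843. Of 3064 recomputed values for named members and ratios, 2947 kept their direction and side of the threshold or changed sign with neither value called (114), 61 lost a call, 56 gained one and none reversed a call. Atp5g3 lost its call in DM-aKG over WT with array weights (adjusted p = 0.0834) and where any one of WT replicates 1 to 3 or DM-aKG replicates 5 and 6 was left out (0.0542 to 0.0867); Uqcr11 lost that call without DM-aKG replicate 5 (0.0577). The number of libraries and their spread limit what can be called among small changes. The simulated step recovered 38% of changes of 0.5 and 10% of changes of 0.25 on the log2 scale. That simulation gave 117 calls, against 4167 in the data, and drew independent noise without the replicate sets. Its shares therefore do not give the recovery in these data.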
